A study of Rattus norvegicus with 30 samples.

Results

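Nuclear receptors are transcription factors that bind small lipophilic ligands, and a group of 10 of them that govern drug and lipid handling in liver is described here across doses and times of phenobarbital. The group holds the constitutive androstane receptor CAR (Nr1i3), the pregnane X receptor PXR (Nr1i2), their partner RXRalpha (Rxra), the bile acid receptor FXR (Nr1h4), the oxysterol receptor LXRalpha (Nr1h3), LRH-1 (Nr5a2), the glucocorticoid receptor GR (Nr3c1), COUP-TFII (Nr2f2), PPARalpha (Ppara) and SHP (Nr0b2). Members were taken as the genes of that list with a probe set annotated to them alone, which gave 10 genes of the 14217 that have such a probe set on the array. They are covered by 15 probe sets. Where a gene had several, the one with the highest mean log2 signal stands for the gene.

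The cells were cryopreserved hepatocytes of male Sprague Dawley rats, bought frozen and plated on collagen under Matrigel. On day 3 of culture they received phenobarbital at 300 µM or 3000 µM, or vehicle, and RNA was taken 24 h or 48 h later. The labels name the vehicle both as water and as culture medium. Each of the 6 combinations of dose and time was run in 5 wells, which gave 30 arrays (Affymetrix Rat Genome 230 2.0). The labels give no genetic change for any group and tie no well to an animal. The p-values therefore measure the spread between wells. Plated hepatocytes also lack the bile flow and blood supply of a liver.

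CAR and PXR are the receptors through which phenobarbital and many other drugs raise genes of drug metabolism. CAR is unusual in that phenobarbital does not have to bind it. CAR is held in the cytoplasm by a chaperone complex and enters the nucleus after dephosphorylation, which follows when phenobarbital blocks signalling of the EGF receptor. PXR is opened by direct binding of ligands. Both bind DNA paired with RXRalpha, as do FXR, LXRalpha and PPARalpha, while GR is known to sustain transcription of the CAR and PXR genes in hepatocytes. SHP lacks a DNA-binding domain and represses other receptors, LRH-1 binds DNA as a monomer and drives bile acid synthesis genes, and COUP-TFII often opposes the receptors whose sites it shares.

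Values are log2 of the deposited array signal, so a difference of 1 is a doubling. Of 16596 probe sets whose highest group mean reached the median of all log2 values (8.58), each was tested with limma, and a difference was called where the Benjamini-Hochberg adjusted p over all of them was under 0.05. Of the 10 receptor genes 7 could be tested, through 9 of their 15 probe sets, and in these 7 genes every group mean of the probe set used lay above that level. Rxra, Ppara and Nr0b2 have 1 probe set each, and it lay below that level in all groups.

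All 7 hepatocyte markers on the array lay above the level for testing (Alb, Apoa1, Apob, Ttr, Hnf4a and Asgr1 among them), with summed signals from 297072 to 525060 over the 30 wells. Array medians ran from 348.7 to 424.9 signal units. In 2 arrays the hybridisation control probe sets stood apart from their own medians over the 30 arrays. The mean offset (log2) was 0.89 in well 1 of the 24 h vehicle group and 1.34 in well 4 of the 3000 µM group at 48 h. It ran from -0.27 to 0.12 in the other 28. That well 4 also had the highest differences (log2) between 3' and 5' control probe sets, 1.91 for actin and 0.27 for GAPDH, where every other array had at most 1.60 and 0.20. The counts of changed receptor genes at 3000 µM against vehicle were 7 and 6 both with and without those 2 arrays. Among markers of other cells, 5 macrophage markers were tested. At 3000 µM Cd68 rose by 0.54 at 24 h and 0.80 at 48 h. The complement genes C1qa and C1qb differed by -0.81 and -1.62 at 24 h and did not pass at 48 h, while Csf1r and Clec4f passed at neither time. The cholangiocyte marker Epcam differed by -0.14 at 48 h, and 0 of 5 lymphocyte markers reached the level for testing. The part of these other cells in the receptor results was not tested. In cultured cells a smaller hepatocyte share of the RNA and less of an RNA per hepatocyte cannot be told apart by these signals.

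At 3000 µM the tested receptor genes fell. At 24 h all 7 tested receptor genes were lower than in vehicle, where 32% of all probe sets tested were called and 14.8% were called lower. At 48 h 6 of the 7 were lower, where 39.4% were called and 19.9% were called lower. The same 6 genes were lower at both times, against 11% of probe sets. With the median of each array centred, 4 of the 7 passed at 24 h (Nr1i3, Nr1i2, Nr1h4 and Nr5a2), and 6 at 48 h. The median difference over the 7 genes was -0.38 at 24 h and -0.58 at 48 h, while the median over all probe sets was 0.01 and 0.00. Some hepatocyte markers fell beside them. At 24 h 5 of 7 were called lower (Asgr1 -0.62 and Apob -0.47 among them), and at 48 h 3 of 7 (Asgr1 -0.88, Apob -0.89, Hnf4a -0.43). The other 4 lay above vehicle at 48 h without passing (Alb 0.27, Ttr 0.12, Apoa1 0.10 and Serpina1 0.09). The part of the hepatocyte markers in the receptor result was not tested. In 6 genes at 24 h and 5 genes at 48 h every treated well lay below every vehicle well, as it did in 11.4% and 12.7% of all probe sets.

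At 300 µM little was seen in the receptor genes. At 24 h 0 of the 7 passed limma's adjusted threshold, against 2.99% of all probe sets. An unadjusted p under 0.05 was seen for 2 (Nr1i2 and Nr2f2), and for 14.5% of all probe sets. At 48 h only Nr2f2 passed, and it was lower, against 1.54% of all probe sets called and 0.723% called lower. The median over the 7 genes was -0.08 at 24 h and -0.06 at 48 h.

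Against 300 µM rather than vehicle, 3000 µM gave 5 lower receptor genes at 24 h, where 26.1% of probe sets were called and 12.2% called lower. It gave 6 at 48 h, where 34.9% were called and 16.9% called lower. Nr1i2 and Nr2f2 were the 2 of the 7 that did not pass between the doses at 24 h. The comparisons of either dose with vehicle share the vehicle wells, and those of 3000 µM with vehicle and with 300 µM share the 3000 µM wells.

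**Figure D1:**
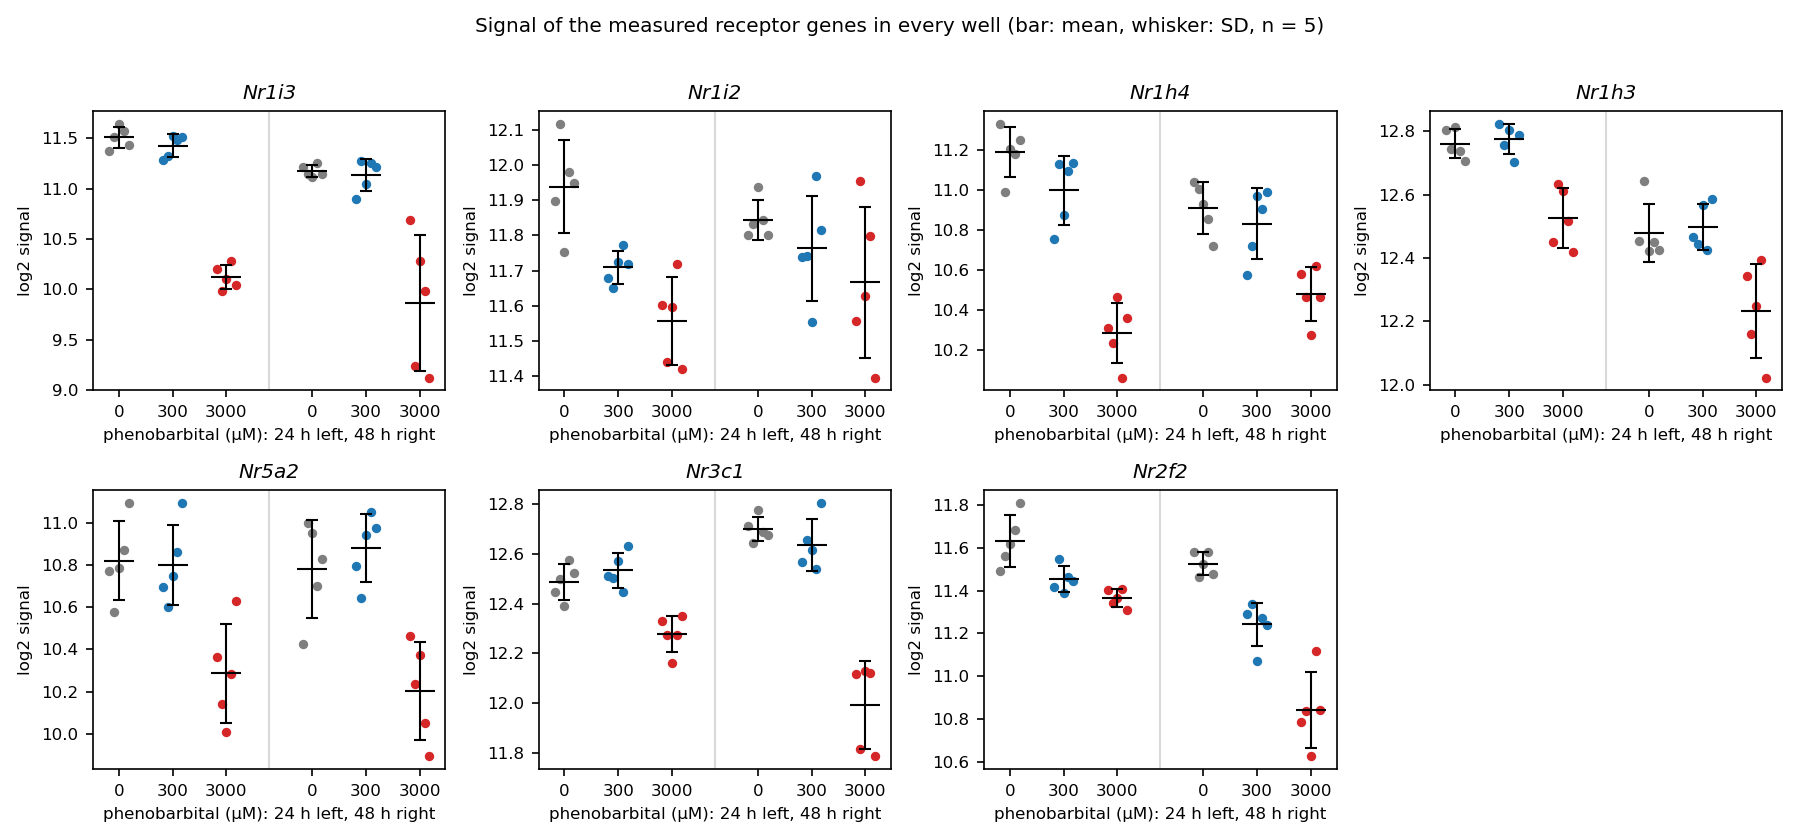
Log2 signal of the 7 tested receptor genes in each of the 30 wells, by phenobarbital dose (0 is vehicle) and time, with the mean and SD of 5 wells; each panel has its own vertical scale. The 3000 µM wells (red) lie lowest in most panels, and the 48 h wells at that dose are widely spread for Nr1i3 (SD 0.68) and narrow for Nr1h4 (SD 0.14).

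Nr1i3, the gene of CAR, had the largest fall of the 7 tested receptor genes at both times. The sequence in front of its annotated start is shown because that receptor changed most of the 7 tested; it is the 250 bases upstream of the start on the plus strand (RefSeq, GRCr8, chr13:86165170-86165419), outside the gene's first exon, and capitals would mark a match to one of the motifs described further on, of which there was none.
Nr1i3: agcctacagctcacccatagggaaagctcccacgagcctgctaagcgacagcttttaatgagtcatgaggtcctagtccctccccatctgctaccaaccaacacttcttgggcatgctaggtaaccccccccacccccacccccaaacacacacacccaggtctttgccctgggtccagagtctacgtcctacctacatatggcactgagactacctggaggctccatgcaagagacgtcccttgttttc

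The log2 signals of Nr1i3 in the 24 h vehicle wells, in well order, were 11.38, 11.52, 11.64, 11.58 and 11.44. At 300 µM they were 11.29, 11.32, 11.53, 11.49 and 11.51. At 3000 µM they were 10.20, 9.98, 10.10, 10.28 and 10.04. The low dose thus overlapped vehicle, while every well of the high dose lay more than 1 log2 unit below every well of the other 2 groups. The difference from vehicle at 3000 µM was -1.39 (SE 0.17, adjusted p 1.3e-07), a 2.62-fold fall that left 38.2% of the vehicle level. The difference at 300 µM was -0.08 with a 95% interval from -0.43 to 0.27 (adjusted p 0.90).

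At 48 h the Nr1i3 vehicle wells read 11.22, 11.15, 11.12, 11.26 and 11.15. At 300 µM they read 10.90, 11.27, 11.05, 11.26 and 11.21. At 3000 µM they read 10.69, 9.24, 10.28, 9.99 and 9.12. The high dose again lay wholly below both other groups, but its own wells now spanned more than 1.5 log2 units, with wells 2 and 5 far below well 1. The fall against vehicle was -1.31 (SE 0.17, adjusted p 2e-07), or 2.48-fold, and the 300 µM difference was -0.04 with an interval from -0.39 to 0.31. That SE rests on a spread shared by all 6 groups, while the SD was 0.68 in the high-dose wells and 0.06 in vehicle. Over 20 alternatives the fall ran from -1.52 to -1.13, and the highest adjusted p from limma was 0.00077. The effect at 3000 µM did not differ detectably between the times, the difference of effects being 0.08 (interval -0.42 to 0.57, adjusted p 0.91). This interval rests on the same shared spread.

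Ordered by mean log2 signal, Nr1i3 ran from 11.51 in 24 h vehicle through 11.43 at 300 µM and 24 h, 11.18 in 48 h vehicle, 11.14 at 300 µM and 48 h and 10.12 at 3000 µM and 24 h to 9.86 at 3000 µM and 48 h. Neighbours in that order overlapped except at 2 steps, between the 24 h and the 48 h wells without the high dose and between these and the high dose. The vehicle wells at 48 h all lay below those at 24 h, yet that difference of -0.33 did not pass (adjusted p 0.28). It passed when only the 2 vehicle groups were fitted (adjusted p 0.008).

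Nr1i2, the gene of PXR, moved much less. The upstream stretch is shown beside that of Nr1i3 as the partner receptor's; it covers the 250 bases before the start on the plus strand (RefSeq, GRCr8, chr11:75965467-75965716), outside the first exon, and the capitals mark a match to the glucocorticoid receptor hexamer AGAACA at positions -57 to -52 from the start.
Nr1i2: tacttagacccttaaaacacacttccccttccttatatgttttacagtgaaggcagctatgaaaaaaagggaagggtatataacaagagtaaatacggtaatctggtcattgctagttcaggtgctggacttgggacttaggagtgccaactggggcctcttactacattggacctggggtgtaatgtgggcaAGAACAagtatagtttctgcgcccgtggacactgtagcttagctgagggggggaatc

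At 24 h the Nr1i2 log2 signals were 11.90, 12.12, 11.75, 11.98 and 11.95 in vehicle. They were 11.68, 11.65, 11.73, 11.77 and 11.72 at 300 µM, and 11.60, 11.44, 11.60, 11.72 and 11.42 at 3000 µM. All high-dose wells lay below all vehicle wells, narrowly between the nearest pair, and the low-dose wells overlapped both. The difference from vehicle was -0.38 (SE 0.08, adjusted p 0.00056) at 3000 µM, which left 76.7% of the vehicle level. At 300 µM it was -0.23 (interval -0.40 to -0.06), and that did not pass over all probe sets (adjusted p 0.16).

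At 48 h the Nr1i2 values were 11.80, 11.83, 11.94, 11.84 and 11.80 in vehicle. They were 11.74, 11.74, 11.55, 11.97 and 11.81 at 300 µM, and 11.56, 11.95, 11.63, 11.80 and 11.40 at 3000 µM. The 3 groups overlapped, since well 2 at the high dose was higher than every vehicle well. The difference at 3000 µM was -0.18 (interval -0.35 to -0.01) and did not pass (adjusted p 0.096). Without well 2 of that group it was -0.25 and passed (adjusted p 0.016). No time difference and no difference between the effects at 24 h and 48 h passed for Nr1i2, and neighbours in the order of its 6 group means overlapped throughout.

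**Figure D2:**
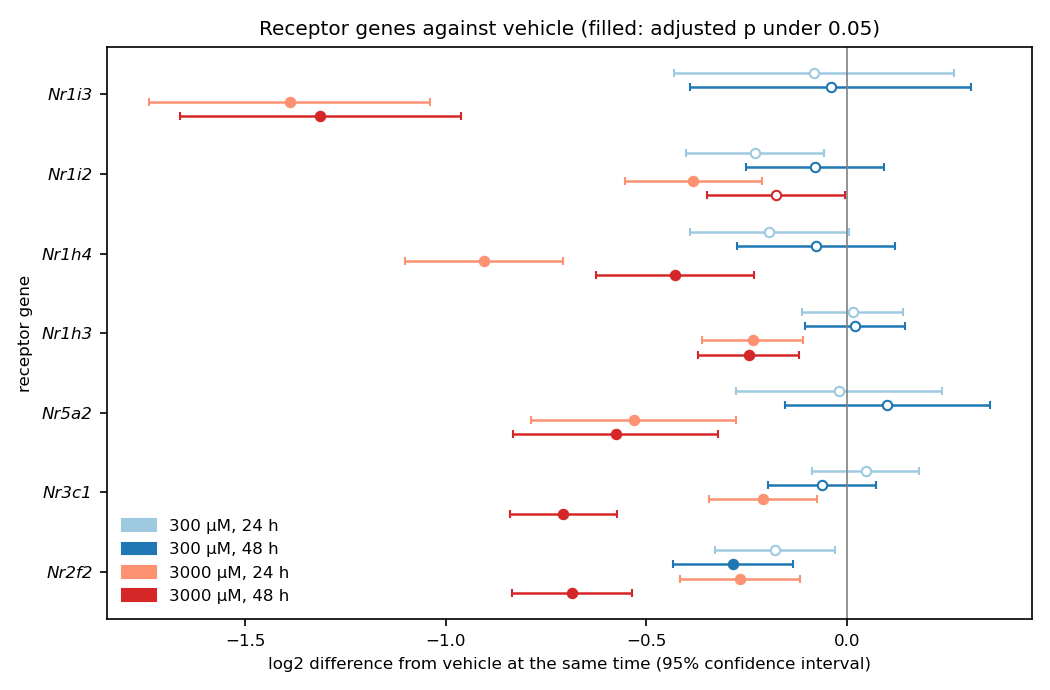
Log2 difference from vehicle at the same time for the 7 tested receptor genes (points, with 95% confidence intervals from limma), for 300 µM (blue) and 3000 µM (red) at 24 h (pale) and 48 h (dark); filled points passed the adjusted threshold. The intervals at 3000 µM lie below 0 for all 7 genes, with Nr1i3 furthest at -1.39 and -1.31, and those at 300 µM include 0 except for Nr1i2 at 24 h and Nr2f2.

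Nr1h4 encodes FXR, which senses bile acids and limits their synthesis. At 24 h its log2 signals were 11.33, 10.99, 11.21, 11.18 and 11.25 in vehicle. They were 10.76, 11.13, 10.88, 11.10 and 11.13 at 300 µM, and 10.31, 10.24, 10.47, 10.06 and 10.36 at 3000 µM. The high-dose wells formed a band of their own below both other groups. The fall against vehicle was -0.90 (SE 0.10, adjusted p 6.2e-09), or 1.87-fold, the second largest of the 7 tested genes at that time.

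At 48 h Nr1h4 read 11.04, 11.01, 10.93, 10.85 and 10.72 in vehicle. It read 10.58, 10.72, 10.97, 10.91 and 10.99 at 300 µM, and 10.58, 10.47, 10.27, 10.62 and 10.46 at 3000 µM. The high dose was still below every vehicle well but now overlapped the low dose. The fall was -0.43 (adjusted p 0.00056), which is smaller than at 24 h by 0.48 (interval of the difference 0.20 to 0.76, adjusted p 0.043). That difference between the times passed in 9 of 30 alternatives of processing or sample choice, and the highest adjusted p among them was 0.11.

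Nr1h3 encodes LXRalpha, which responds to oxysterols and drives lipid synthesis and cholesterol export. Its log2 signals at 24 h were 12.80, 12.74, 12.81, 12.74 and 12.71 in vehicle. They were 12.82, 12.76, 12.80, 12.70 and 12.79 at 300 µM, and 12.45, 12.63, 12.61, 12.52 and 12.42 at 3000 µM. Wells agreed closely within a group, so a fall of -0.24 at the high dose (SE 0.06, adjusted p 0.0031) separated all its wells from vehicle. The low dose differed by 0.01 (interval -0.11 to 0.14).

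At 48 h Nr1h3 read 12.45, 12.64, 12.42, 12.45 and 12.42 in vehicle. It read 12.47, 12.44, 12.57, 12.43 and 12.59 at 300 µM, and 12.34, 12.16, 12.25, 12.39 and 12.02 at 3000 µM. The fall at the high dose was -0.24 again (adjusted p 0.0016). Nr1h3 was also the only tested receptor gene whose fall with time passed in every dose group. It fell by 0.28 in vehicle (adjusted p 0.003), by 0.28 at 300 µM (adjusted p 0.0043) and by 0.29 at 3000 µM (adjusted p 0.001). The means of Nr1i3 and Nr2f2 were also lower at 48 h in every dose group. For Nr1i3 the differences were -0.33 in vehicle, -0.29 at 300 µM and -0.26 at 3000 µM, and none passed. In each dose group every 48 h well of Nr1h3 lay below every 24 h well. The effect of the high dose differed between the times by -0.01 (interval -0.19 to 0.17).

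Nr5a2 encodes LRH-1, an activator of bile acid and cholesterol genes. Its upstream stretch is shown because it alone among the 8 receptor genes searched held the hexamer AGGTCA that many nuclear receptors bind. Of all 33469 windows searched around gene starts, 16.2% held that hexamer at least once. The stretch is the 250 bases before the start on the minus strand (RefSeq, GRCr8, chr13:50984939-50985188), outside the first exon, with the match at positions -134 to -129 in capitals. Another match lay after the start, at positions 3 to 8 with the start counted as 0, outside the stretch shown.
Nr5a2: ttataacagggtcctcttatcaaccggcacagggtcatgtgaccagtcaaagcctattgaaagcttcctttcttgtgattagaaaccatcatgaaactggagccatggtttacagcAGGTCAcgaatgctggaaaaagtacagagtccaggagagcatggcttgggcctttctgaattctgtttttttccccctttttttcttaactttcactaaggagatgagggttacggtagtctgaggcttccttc

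At 24 h Nr5a2 read 10.77, 10.58, 10.78, 10.87 and 11.09 in vehicle. It read 10.69, 10.60, 10.75, 10.86 and 11.09 at 300 µM, and 10.37, 10.14, 10.01, 10.29 and 10.63 at 3000 µM. The groups touched, because well 5 at the high dose lay above the lowest vehicle well. The fall was -0.53 (SE 0.13, adjusted p 0.0012), which left 69.2% of the vehicle level.

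At 48 h the Nr5a2 values were 10.42, 10.999, 10.95, 10.70 and 10.83 in vehicle. They were 10.80, 10.65, 10.94, 11.05 and 10.97 at 300 µM, and 10.46, 10.23, 10.38, 10.05 and 9.89 at 3000 µM. The fall was -0.58 (adjusted p 0.00036), with 1 high-dose well above the lowest vehicle well and all of them below the low dose. A second tested probe set of Nr5a2 fell too, by 0.72 at 24 h (adjusted p 0.025) and by 1.02 at 48 h (adjusted p 0.0013). The remaining probe set lay below the level for testing. At 300 µM the main probe set differed from vehicle by -0.02 at 24 h and 0.10 at 48 h.

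Nr3c1 encodes GR, the receptor for glucocorticoids, and the sources used here do not give the hormone content of the culture medium. At 24 h its log2 signals were 12.45, 12.50, 12.39, 12.58 and 12.52 in vehicle. They were 12.51, 12.50, 12.57, 12.45 and 12.63 at 300 µM, and 12.33, 12.28, 12.16, 12.27 and 12.35 at 3000 µM. The high-dose wells all lay just under the vehicle wells, a fall of -0.21 (SE 0.07, adjusted p 0.014).

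At 48 h Nr3c1 read 12.71, 12.65, 12.78, 12.69 and 12.68 in vehicle. It read 12.57, 12.66, 12.61, 12.54 and 12.81 at 300 µM, and 12.12, 11.82, 12.13, 12.12 and 11.79 at 3000 µM. The gap between high dose and vehicle had widened, to -0.71 (adjusted p 1.7e-10), which left 61.3% of the vehicle level. The change in effect between the times was -0.50 (interval -0.69 to -0.31, adjusted p 0.0024). Both groups moved with time: the high-dose wells fell by 0.29 from 24 h to 48 h (adjusted p 0.0027), and the vehicle wells rose by 0.21 (adjusted p 0.043). The rise in vehicle was past the threshold in 6 of 20 alternatives. A second probe set of Nr3c1 lay just below the level for testing, with its highest group mean at 8.57. It did not show the fall: its 48 h means were 7.74 in vehicle and 8.38 at 3000 µM. Those groups overlapped, with vehicle wells spread from 5.48 to 8.73.

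Nr2f2 encodes COUP-TFII, a receptor without a known physiological ligand that is also expressed in stellate and endothelial cells. At 24 h its log2 signals were 11.49, 11.56, 11.62, 11.68 and 11.81 in vehicle. They were 11.42, 11.55, 11.39, 11.46 and 11.45 at 300 µM, and 11.40, 11.34, 11.37, 11.41 and 11.31 at 3000 µM. The high-dose wells lay below vehicle and within the range of the low dose or just under it. The fall was -0.27 at 3000 µM (SE 0.07, adjusted p 0.0047), and the 300 µM difference was -0.18 (adjusted p 0.22).

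At 48 h Nr2f2 read 11.58, 11.47, 11.53, 11.58 and 11.48 in vehicle. It read 11.29, 11.34, 11.07, 11.27 and 11.24 at 300 µM, and 10.79, 10.84, 10.63, 11.12 and 10.84 at 3000 µM. Here the wells stepped down with dose: every 300 µM well lay below vehicle, and 4 of the 5 high-dose wells lay below every low-dose well. The difference was -0.28 at 300 µM (adjusted p 0.037) and -0.68 at 3000 µM (adjusted p 2.9e-09), and 3000 µM was below 300 µM by 0.40 (adjusted p 4.6e-05). The effect of 3000 µM grew between the times by -0.42 (interval -0.63 to -0.21, adjusted p 0.019). The call at 300 µM was lost in 10 of 20 alternatives, where the difference ranged from -0.31 to -0.24, and a second tested probe set of Nr2f2 passed in none of the 11 comparisons (at 3000 µM and 48 h it differed by -0.24, SE 0.32).

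Of the stellate cell and fibroblast markers 4 of 8 lay above the level for testing (Col1a2, Dcn, Lum and Pdgfrb did not). Against vehicle 0 of these 4 passed at 3000 µM at either time. Against 300 µM 1 of the 4 was called lower at each time, beside 12.2% of all probe sets at 24 h and 16.9% at 48 h. The summed signal of the 8 markers ran from 3048 to 3913 in the 48 h vehicle wells and from 2802 to 3337 in the 48 h high-dose wells. Of the endothelial markers 1 of 6 on the array lay above that level, with Pecam1, Stab2, Tek, Vwf and Lyve1 below it, and its difference of -0.19 at 48 h did not pass. The endothelial sum ran from 986 to 1521 in vehicle and from 722 to 1321 at the high dose. The part of these cells in the Nr2f2 result was not tested.

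Rxra, Ppara and Nr0b2 gave dim signals, at which MAS5 values scatter widely. Rxra, the shared partner of CAR, PXR, FXR, LXRalpha and PPARalpha, had group means from 6.73 (3000 µM, 24 h; wells from 5.02 to 7.56) to 7.92 (300 µM, 24 h; wells from 7.05 to 8.49). Ppara, the receptor of fatty acid oxidation genes, had means from 5.62 to 6.38. Nr0b2, the gene of SHP, had means from 7.31 (48 h vehicle) to 7.95 (300 µM, 48 h). All groups of these 3 genes overlapped with their neighbours in the order of means.

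For the dim genes the wells of 1 group differed by more than the groups did. In the 24 h vehicle wells Rxra read 8.53, 6.93, 7.60, 6.93 and 7.68, and Nr0b2 read 6.90, 7.51, 7.45, 8.50 and 8.01. When every probe set was fitted with no filter, none of the 3 passed in any of the 11 comparisons, and the lowest adjusted p was 0.074 for Rxra at 3000 µM against 300 µM at 24 h. The interval for Rxra at 3000 µM against vehicle at 24 h ran from -1.69 to 0.09, so a fall as large as that of Nr1i3 lay within what this probe set could not resolve. The same held for Ppara, with an interval from -1.59 to 0.47.

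**Figure D3:**
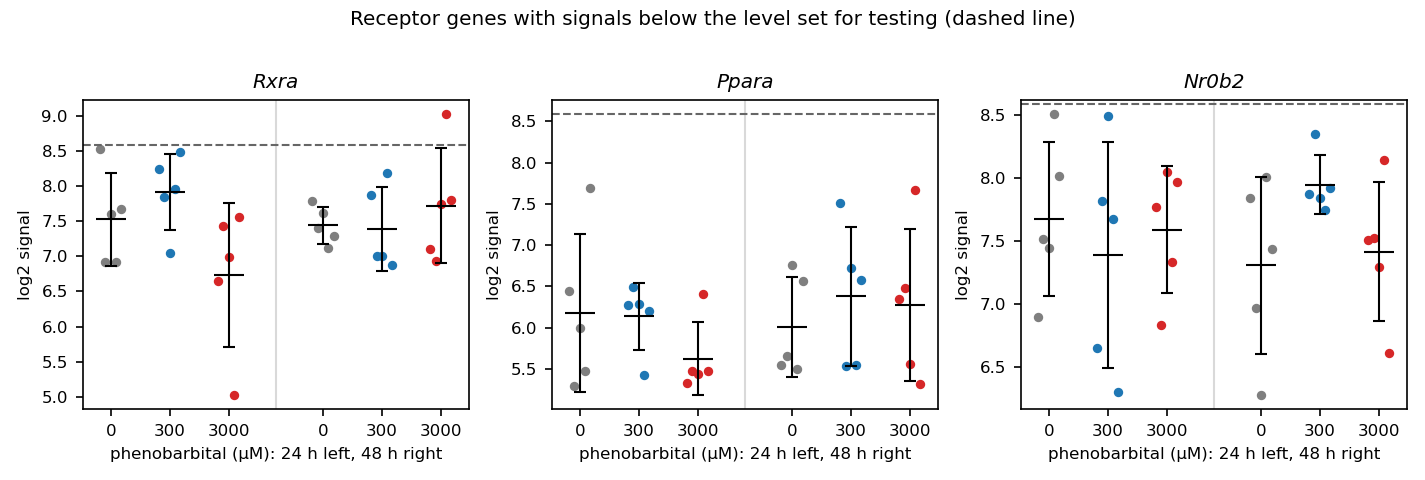
Log2 signal of Rxra, Ppara and Nr0b2 in each well by dose and time, with the mean and SD of 5 wells and a dashed line at the level of 8.58 that a group mean had to reach for testing. The means of all groups lie below the line, and the doses overlap at both times.

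With time alone, in the vehicle wells, 2 of the 7 tested receptor genes differed between 48 h and 24 h (Nr1h3 lower, Nr3c1 higher), against 7.2% of all probe sets, 3.15% lower and 4.05% higher. In the 300 µM wells 1 gene did (Nr1h3, lower), against 5.19%, of which the lower calls made 2.33%. In the 3000 µM wells 3 genes did, all lower (Nr1h3, Nr3c1 and Nr2f2), against 14% called and 7.53% called lower.

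The effect of 3000 µM differed between 24 h and 48 h for 3 of the 7 genes, against 4.15% of all probe sets (2.77% below 0 and 1.38% above). FXR's gene had the larger fall at 24 h, and the genes of GR and COUP-TFII had the larger fall at 48 h, as given above. For 300 µM the difference of effects passed for 0 of the 7 genes and for 0 of the 16596 probe sets in limma, with an unadjusted p under 0.05 for 0 of the 7 genes and for 1251 probe sets.

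The wells of the high dose at 48 h were not alike. Expressed as log2 difference from the mean of the 48 h vehicle wells, Nr1i3 stood at -0.48 in well 1, -1.94 in well 2, -0.89 in well 3, -1.19 in well 4 and -2.05 in well 5. Well 5 was the lowest of the 5 for 5 of the 7 tested receptor genes (Nr1i3, Nr1i2, Nr1h3, Nr5a2 and Nr3c1), and well 3 was the lowest for Nr1h4 and Nr2f2. Wells 2 and 5 were the 2 lowest for Nr1i3, Nr1h3 and Nr3c1, while for Nr1i2 well 2 was the highest. The wells were compared in this way after their values were seen.

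In these 5 wells a probe set annotated to Cyp2b1 and Cyp2b2 together, cytochromes P450 that phenobarbital classically induces through CAR, read 12.40, 10.78, 10.36, 10.55 and 10.65. The well with the highest Nr1i3 signal was thus also the well with the highest Cyp2b signal, and the other 4 lay within 0.5 of one another although their Nr1i3 signals spanned more than 1. Well 4, whose hybridisation controls stood apart, was in the middle of the 5 for Nr1i3.

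**Figure D4:**
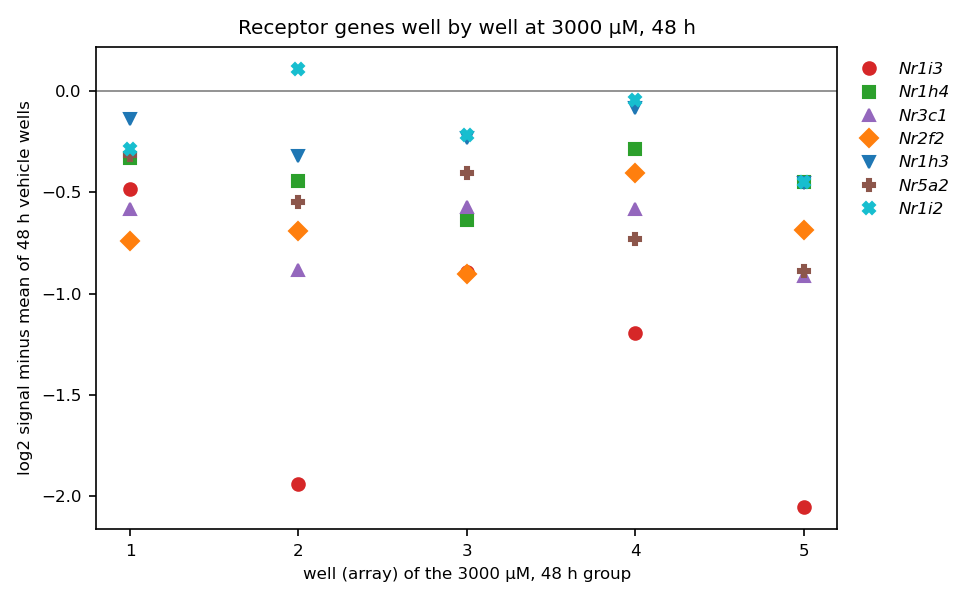
Log2 signal of each tested receptor gene in the 5 wells of the 3000 µM group at 48 h, minus the mean of the 48 h vehicle wells; wells are numbered without order. Nr1i3 (red circles) ranges from -0.48 to -2.05, and well 5 is lowest for 5 of the 7 genes.

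The genes whose 6 group means ran most like those of Nr1i3, after each gene's own mean was removed, were sought among 9824 other tested genes by the root mean square difference. They were Zbtb11os1 (0.04), Zfp354a (0.09), Slc37a4 (0.10), Qprt (0.10) and Urad (0.10), where the profile of Nr1i3 itself has a root mean square of 0.64. Zbtb11os1 reached the level for testing in the 24 h vehicle group alone (8.62), and its other 5 means ran from 7.01 to 8.51. Slc37a4 carries glucose 6-phosphate into the endoplasmic reticulum, Qprt makes a precursor of NAD, and Urad acts in urate breakdown. Slc37a4, for example, had means of 14.46, 14.19 and 13.21 at 24 h and 14.10, 14.01 and 12.74 at 48 h over the doses from 0 to 3000 µM. For Nr1i2, whose profile has a root mean square of only 0.12, the nearest were Pink1, Mkrn1, Rbp4, Snx3 and Aldh3b1, at 0.03 each. These are likenesses over 6 group means and carry no test.

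The proteins that hold and release CAR were followed as a list of 14 genes, 11 of them tested. At 3000 µM 4 rose and 2 fell at 24 h, where 17.3% of all probe sets were called higher and 14.8% lower. At 48 h 6 rose and 2 fell, where 19.5% were called higher and 19.9% lower. Gadd45b, a coactivator of CAR, rose by 0.89 (adjusted p 2.3e-08) and 0.77 (adjusted p 2.4e-07). The chaperone partner Fkbp4 rose by 0.29 at 24 h and 0.39 at 48 h. Egfr, the receptor whose signalling keeps CAR in the cytoplasm, fell by 0.19 and 0.52. Ppp2ca, a catalytic subunit of the phosphatase PP2A that dephosphorylates CAR, fell at both doses and times, by 0.25 and 0.32 at 300 µM and by 0.16 and 0.48 at 3000 µM. Dnajc7, the cytoplasmic CAR retention protein, passed at neither dose.

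Of 15 tested coactivators and corepressors, 2 rose and 1 fell at 24 h and 3 fell at 48 h at 3000 µM, which is 20% called at each time beside 32% and 39.4% of all probe sets; the difference was not tested. Lpin1, a phosphatidate phosphatase that also coactivates PPARalpha, had the largest change, -1.59 at 24 h and -1.76 at 48 h (adjusted p 1.6e-14 and 8.1e-16), and it was lower at 300 µM at 24 h too (-0.33, adjusted p 0.049). Crebbp, a histone acetyltransferase, and Ncor1, a corepressor, rose at 24 h by 0.29 and 0.28. Tbl1x, a corepressor subunit, and Ncoa6, a coactivator, were lower at 48 h, with -0.49 and -0.31.

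Among 30 further nuclear receptor genes, 16 were tested. At 3000 µM 3 rose and 2 fell at 24 h, and 2 rose and 3 fell at 48 h, with 31.2% called at each time, beside 32% and 39.4% of all probe sets, so the count is not a result about this list. The list median was -0.05 and 0.06, against -0.38 and -0.58 in the group described here. The estrogen-related receptors went opposite ways. Esrra, a regulator of mitochondrial genes, rose by 0.72 (adjusted p 0.00066) and 0.92 (adjusted p 2.3e-05), and Esrrg fell by 0.61 (adjusted p 0.0026) and 1.22 (adjusted p 1.1e-07). Hnf4a, the receptor that maintains hepatocyte identity and a hepatocyte marker, fell by 0.17 (adjusted p 0.043) and 0.43 (adjusted p 2.5e-06). Nr2c1 (0.35) and Nr1d2 (0.26) rose at 24 h. At 48 h Rarb rose (0.57) and Ppard was lower (-0.40). At 300 µM 0 of the 16 passed limma's adjusted threshold at either time. An unadjusted p under 0.05 was seen for 2 genes at 24 h and 1 at 48 h, beside 14.5% and 11.9% of all probe sets.

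The receptors' known target genes were counted next to the receptors themselves. Of 18 tested CAR and PXR targets, 10 rose and 0 fell at 300 µM and 24 h, 9 rose and 0 fell at 300 µM and 48 h, 8 rose and 2 fell at 3000 µM and 24 h, and 9 rose and 2 fell at 3000 µM and 48 h. Of all probe sets, 1.72% were called higher and 1.27% lower at 300 µM and 24 h, 0.813% and 0.723% at 300 µM and 48 h, 17.3% and 14.8% at 3000 µM and 24 h, and 19.5% and 19.9% at 3000 µM and 48 h. Cyp2c6v1, a cytochrome P450, rose by 2.04 and 2.25 at 300 µM and by 1.68 and 1.72 at 3000 µM. Cyp3a2 rose by 0.68 and 1.32 at 300 µM and by 0.64 and 1.12 at 3000 µM. The drug exporter Abcb1a rose by 0.70 at 300 µM and 24 h, and at 3000 µM by 1.28 and 1.47. Alas1, the first enzyme of heme synthesis, rose at 300 µM by 0.76 and 0.62 and fell at 3000 µM by 0.32 and 0.36. Cyp2a1 likewise rose by 0.49 at 300 µM and 24 h and was lower at 3000 µM, with -0.80 and -1.14. Gstt3, a glutathione transferase, rose by 0.86 and 0.84 at 300 µM and did not pass at 3000 µM (-0.11 and -0.26).

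That joint probe set of Cyp2b1 and Cyp2b2 rose 24.3-fold at 24 h and 13.1-fold at 48 h at 300 µM (adjusted p 1.7e-14 and 3.4e-12), where Nr1i3 and Nr1i2 did not pass. At 3000 µM, where Nr1i3 was lower, it rose 2.25-fold at 24 h (adjusted p 0.00017) and differed by 0.12 with an interval from -0.34 to 0.59 at 48 h (adjusted p 0.71). The 2 genes cannot be told apart by this probe set. Cyp3a23-3a1, the rat's classical PXR target, passed only at 3000 µM and 48 h (0.35, adjusted p 0.014).

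A mixed list held targets of FXR and SHP and other bile acid genes. Of its 9 tested genes, 6 fell at 3000 µM at each time, while 2 rose at 24 h and 1 at 48 h. Of all probe sets 14.8% and 19.9% were called lower, and 17.3% and 19.5% higher. Cyp8b1, the sterol 12-alpha-hydroxylase, fell, with differences of -3.5 (adjusted p 8.2e-15) and -2.93 (adjusted p 1.8e-13). Cyp7a1, the rate-limiting enzyme of bile acid synthesis, rose at 300 µM by 1.81 (adjusted p 2.1e-05) and 1.02 (adjusted p 0.024) and fell at 3000 µM by 1.28 (adjusted p 0.00014) and 1.57 (adjusted p 5.3e-06). Slc10a1, the bile acid importer, and Baat, which conjugates bile acids to amino acids, were lower at 3000 µM, with -1.41 and -1.52 and with -0.66 and -1.16. Slc27a5, a bile acid ligase, was the 1 gene lower at 300 µM (-0.43 at 48 h), where 0.723% of all probe sets were called lower. The exporters went the other way: Abcb4, a phospholipid exporter, rose by 0.41 and 0.65, and Abcb11, the bile salt export pump, rose by 0.24 at 24 h and by 0.21 at 300 µM and 24 h.

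Of 8 tested LXR targets, 5 fell and 1 rose at 3000 µM at each time. Of all probe sets 14.8% and 19.9% were called lower, and 17.3% and 19.5% higher. The lipid synthesis genes Acaca (-1.0 and -0.94), Scd (-0.67 and -0.76), Srebf1 (-0.59 and -0.58) and Fasn (-0.33 and -0.35) fell, as did the exporter Abcg1 (-0.52 and -0.60). Abca1, the cholesterol exporter, rose by 0.33 and 0.21. At 300 µM it was the 1 gene called, at 48 h (-0.28), where 1.54% of all probe sets were called and 0.723% called lower.

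Of 18 tested PPARalpha targets, 17 fell and 0 rose at 3000 µM at each time (14.8% and 19.9% of all probe sets were called lower), with a list median of -0.69 at both. Cyp4a1, the fatty acid omega-hydroxylase, fell, with differences of -1.48 and -2.13, as did Cpt1a, the gate of fatty acids into mitochondria, with -1.54 and -1.74. Plin5, a lipid droplet coat protein, had -2.29 and -1.69, and Ehhadh, an enzyme of peroxisomal oxidation, -1.25 and -1.48. At 300 µM 6 fell at 24 h and 5 at 48 h, Cyp4a1 (-0.61 and -0.85) and Angptl4 (-0.53 and -0.55) among them, where 1.27% and 0.723% of all probe sets were called lower. The receptor's own gene was too dim to be set beside them.

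Of 13 tested GR targets, 6 fell and 1 rose at 24 h and 5 fell and 1 rose at 48 h at 3000 µM. That is 53.8% and 46.2% called, beside 32% and 39.4% of all probe sets, so the share called in either direction at 48 h was near that of all probe sets. By direction, 14.8% and 19.9% of all probe sets were called lower, and 17.3% and 19.5% higher. Tsc22d3, the glucocorticoid-induced leucine zipper, fell, with -0.62 and -0.70, as did the chaperone Fkbp5 (-0.62 and -0.38), the kinase Sgk1 (-0.57 and -0.88) and Tdo2 of tryptophan breakdown (-0.43 and -0.61). Pck1, the rate-limiting enzyme of glucose synthesis, was lower at 24 h (-0.70). The transcription factor Cebpd rose by 0.62 and 0.77. At 300 µM 2 fell at each time, Fkbp5 and Tdo2 at 24 h and Sgk1 and Tsc22d3 at 48 h, where 1.27% and 0.723% of all probe sets were called lower. Several of the listed targets answer to more than 1 of the receptors. Some hepatocyte markers fell too, and their part in these counts was not tested.

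**Figure D5:**
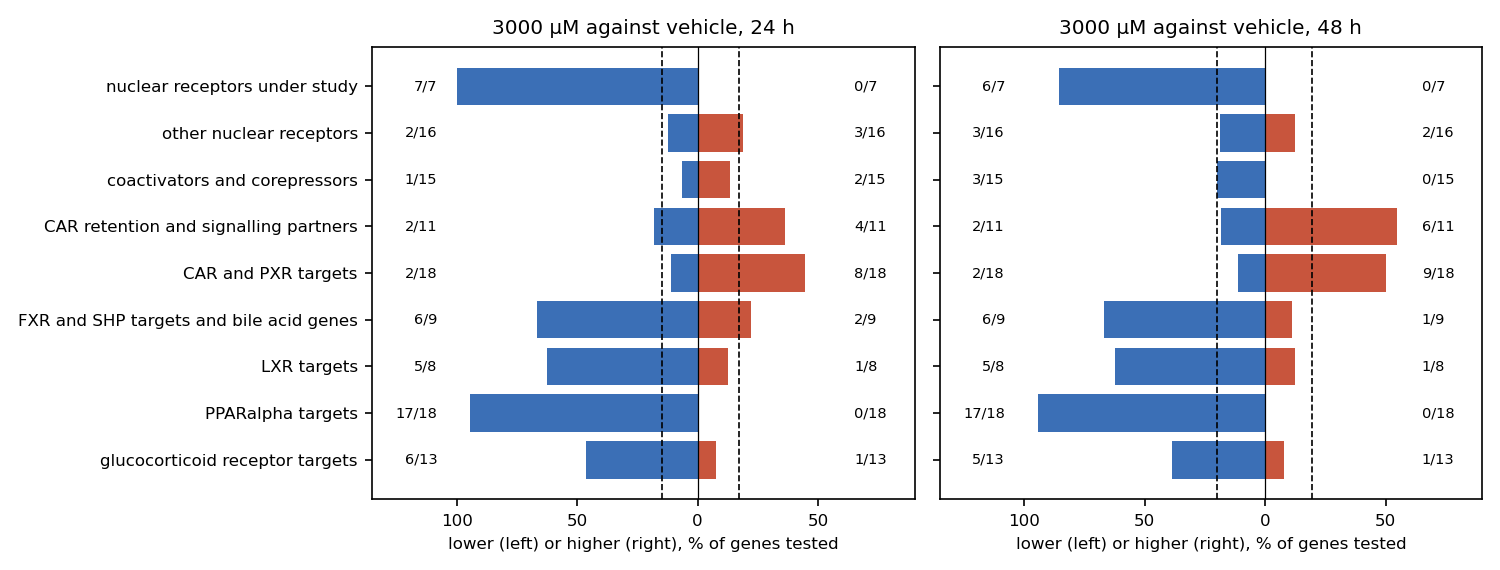
Share of the tested genes of each list that were called lower (blue, left) or higher (red, right) at 3000 µM against vehicle, at 24 h and 48 h, with the counts beside the bars; dashed lines mark the share of all 16596 probe sets called in that direction (14.8% and 17.3% at 24 h, 19.9% and 19.5% at 48 h). The receptor genes (7 and 6 of 7) and the PPARalpha targets (17 of 18) lie furthest to the left.

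RefSeq start sites were found for 8 of the 10 receptor genes (none was matched for Nr1h4 and Nr2f2), with 9 windows from 250 bases before to 50 bases after the start. Motifs were sought on both strands in these and in all 33469 windows of the table. The hexamer AGGTCA was found in Nr5a2, at the 2 places given above, and at least once in 16.2% of all windows. Its direct repeats with a spacer of 1 base (DR1) or 4 bases (DR4), each of which contains that hexamer, were in none of the 9, as in all but 0.054% and 0.006% of windows. The hexamer AGAACA was found in Nr1i2 (20.7% of windows), and the E-box CACGTG (6.42%) and the TATA box TATAAA (14.2%) in Nr0b2. These are letter matches in short windows, and Nr1i3, the gene with the largest fall among those tested, held none of them.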

How the data were processed

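RNA of 30 wells (5 for each of 6 groups of dose and time) was hybridised to Rat Genome 230 2.0 arrays. The deposited values are linear signal intensity per probe set, made by the authors with MAS5, per the submitters' processing notes; the version is not given in the sources used here. Each array has a trimmed mean (2% left out at each end) of 1500.6 to 1500.7, so all arrays carry the same overall scale and a shift common to all genes could not be seen. Intensities were taken to log2 with no constant. Of 31099 probe sets, 57 controls and those whose highest group mean was under 8.58 were left out, and 16596 were tested. Probe sets were named from GEO's platform annotation: 20832 carry 1 symbol, 436 several and 9831 none. No detection calls were used.

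All 6 group means were fitted over 30 arrays with limma 3.58.1 (R 4.3.3), with a trended, robust variance and Benjamini-Hochberg adjustment within each of 11 comparisons. The procedure was tested on simulated data. Array precision is limited by 5 wells per group. The receptor genes, target lists and tests were chosen with earlier results of these data known, so list counts are descriptions. Up to 4 genes per list and comparison with vehicle were named, the largest changes past the threshold first, with Cyp2b1, Cyp2b2 and Cyp3a23-3a1 always; Dnajc7, Hnf4a at 24 h, Ppard, Abcb4, Fasn, Abca1 at 3000 µM, Tdo2 and Sgk1 at 24 h and Fkbp5 at 48 h were added after their values were seen. The wells at 3000 µM and 48 h were compared after seeing their values. Alternatives were quantile normalization, centred array medians, a constant of 32, no filter or a 75th percentile filter, the compared groups alone, plain eBayes, array weights, leaving out arrays, and the running numbers of the arrays as a block. Those numbers, in sets of 6, are not explained in the sources used here. Deviations within a set correlated at -0.06 to 0.09 (median 0.00, 75 pairs), and between sets at -0.09 to 0.11 (300 pairs). Correlations over all probe sets cannot show whether a set shared a batch.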

Additional observations from a re-analysis of the deposited data

Results flagged for a closer look

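Single wells stood far from the other 4 of their group in 4 of 60 groups of receptor values, where chance gives about 1 in 20, or 3. They were the log2 signals of Nr1h3 in well 2 of the 48 h vehicle group (12.64, above the others), Ppara in well 4 at 300 µM and 24 h (5.43, below the others), Ppara in well 4 at 3000 µM and 24 h (6.40, above the others) and Nr0b2 in well 2 at 300 µM and 48 h (8.35, above the others).

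For 3 receptor genes the effect of 3000 µM differed between the times by limma's test of the difference itself, taken as the 48 h effect minus the 24 h effect. It was 0.48 for Nr1h4, whose fall was the smaller at 48 h, and -0.50 for Nr3c1 and -0.42 for Nr2f2, whose falls were the larger at 48 h. All 5 high-dose wells lay below all vehicle wells at both times in these 3 genes.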

How the results depend on the processing

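Of 77 receptor differences followed over 20 or 30 alternatives each, 62 kept their side of the threshold in all of them and 0 of the called ones reversed. Nr1i3, Nr1h4, Nr5a2 and, at 24 h, Nr1i2 stayed lower than vehicle at 3000 µM in all alternatives. With array medians centred the receptor genes called numbered 4 in place of 7 at 3000 µM against vehicle at 24 h (Nr1h3, Nr3c1 and Nr2f2 were lost, at -0.17, -0.14 and -0.20), 3 in place of 5 against 300 µM at 24 h, 0 in place of 1 at 300 µM and 48 h, and 1 in place of 2 between the vehicle times. Over all probe sets that centring moved the share of higher calls from 53.9% to 66.9% at 3000 µM and 24 h, from 53.3% to 66.6% against 300 µM at 24 h, from 52.9% to 66.9% at 300 µM and 48 h, from 56.2% to 36.5% between vehicle times, from 55.1% to 40.8% between 300 µM times, from 46.0% to 23.2% between 3000 µM times, and from 33.3% to 18.1% for the difference of the 3000 µM effects. Without the filter the counts were 0 at 300 µM and 48 h and 1 between vehicle times, where plain eBayes, leaving out both arrays that stood apart and the replicate block (adjusted p for Nr3c1 0.059, difference 0.21) also gave 1. The block also ended the call on the difference of effects for Nr1h4 (0.48, adjusted p 0.062) and no other receptor call. Between the 300 µM times array weights and leaving out both arrays gave 2 in place of 1. Fitting the compared groups alone gave 1 in place of 3 for the difference of the 3000 µM effects. The cause was not tested.

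Leaving out 1 array at a time, the counts ran from 0 to 1 at 300 µM and 48 h, from 1 to 2 between vehicle times, and from 2 to 3 for the difference of the 3000 µM effects, and they were 7 throughout at 3000 µM and 24 h and 6 to 7 at 48 h. Nr1i2 at 3000 µM and 48 h ran from -0.25 to -0.11, past the threshold without well 2 of that group. Nr1i3 passed between 24 h and 48 h at 3000 µM only without well 1 of the 48 h group (-0.46, adjusted p 0.025).

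Counts of all probe sets called moved more than 1.5 times in these cases. They were 227 with medians centred and 325 or 326 without well 2 or 4 at 300 µM, in place of 496, at 300 µM and 24 h. At 300 µM and 48 h, in place of 255, they were 124 with medians centred, 615 with array weights, 467 without both arrays, 482 with the groups alone and 168 without vehicle well 4. They were 735 with medians centred in place of 1195 between vehicle times, 549 in place of 862 between 300 µM times, and 1186 with the groups alone in place of 2316 between 3000 µM times. The difference of the 3000 µM effects gave 688, and 362 with no filter, 232 with medians centred, 319 with the groups alone and 410 to 441 without 1 of 5 single arrays; that of the 300 µM effects gave 0, and 1 or 3 in 4 alternatives. Dim signals limited Rxra, Ppara and Nr0b2.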
